A study of Sus scrofa with 30 samples.

Results

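The interferons of the pig conceptus, their receptors and the factors that carry the signal to the nucleus were followed in single embryos at the time of elongation. The 9 genes were listed by symbol and matched to NCBI gene identifiers: the ligands IFN-DELTA-1 and IFNG, the receptor chains IFNAR1, IFNAR2, IFNGR1 and IFNGR2, and the response factors STAT2, IRF1 and IRF9. All 9 were among the 13103 genes of the table of all embryos. The data were RNA-seq read counts of 30 whole embryos, with 5 of each sex per day, collected 8, 10 and 12 days after insemination. Embryos are named by day, sex and number as in the labels (d12_f_245 is a Day 12 female). The dams were German Landrace × Pietrain gilts whose cycles had been synchronized with altrenogest, PMSG and hCG, inseminated with semen of 1 Pietrain boar, and 4 gilts were slaughtered per day. Which gilt an embryo came from is not given, and female and male embryos were taken from the same gilts, so littermates are among the embryos and p-values measure the spread between these embryos. No group received interferon or an inhibitor, so days, sexes and the differences between embryos of a day are the comparisons available. A whole embryo holds trophectoderm, hypoblast and embryonic disc, and in such bulk samples more cells of a type and more RNA per cell cannot be told apart.

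Interferons are secreted proteins that act through paired receptor chains on the cell surface. Type I interferons, to which interferon delta belongs, bind IFNAR1 and IFNAR2, and interferon gamma binds IFNGR1 and IFNGR2, and both receptors switch on Janus kinases and STAT proteins. The type I signal reaches its target genes mainly through a complex that holds STAT2 and IRF9, while interferon gamma raises IRF1, itself a transcription factor of antigen-presentation genes. The pig is unusual in that its trophectoderm, and not an immune cell, secretes interferon gamma together with interferon delta around attachment, and the uterine stroma and epithelium are their known targets. The comparisons below ask when each component of this system appears and whether the response genes of an embryo follow its own interferon level.

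Positions are those of the Sscrofa11.1 assembly. IFN-DELTA-1 (gene 396854) lies at chr1:201654500-201655595, within the type I interferon locus at chr1:201219848-201851495. That locus holds 32 annotated type I interferon genes, 11 of them of the delta family, and IFN-DELTA-1 was the only one of the 32 in the table. How reads shared by near-identical copies were assigned is not stated, so its counts could include or lack reads of relatives. IFNG (396991) lies at chr5:32477906-32482670. The receptor chains IFNAR2, IFNAR1 and IFNGR2 sit together on chromosome 13 within 269.7 kb, IFNAR2 (100533555, chr13:196765915-196852640), IFNAR1 (396658, chr13:196925731-196951398) and IFNGR2 (100126864, chr13:197007303-197035604). IFNGR1 (100152238) lies apart at chr1:27037151-27061095. STAT2 (396923, chr5:21733030-21748960) overlaps IL23A, IRF1 (396611, chr2:134776122-134783646) overlaps SLC22A5, and IFN-DELTA-1 and IFNAR2 each overlap an uncharacterized gene. Whether counting used strand is not stated, so overlapping reads cannot be assigned. IRF9 (780415) lies at chr7:75133800-75139641.

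Libraries held 6068212 to 34002508 counts, and the smallest was that of Day 12 female embryo d12_f_245. Levels are CPM, counts scaled to a common library size with TMM factors, and 3 counts correspond to 0.0823 to 0.434 CPM, depending on the library. The 10 trophectoderm markers were all measured, and their summed level was 21658 to 26045 CPM on Day 8, 35258 to 52337 CPM on Day 10 and 9390 to 27429 CPM on Day 12. Of 32 leukocyte markers, 6 were in the table, and the pan-leukocyte gene PTPRC was not. Their summed level was 46.3 to 65.8 CPM on Day 8, 35.2 to 46.2 CPM on Day 10 and 36.6 to 78.6 CPM on Day 12. Of the 6, GZMA, CD247 and LYZ were higher and EOMES and FCER1G lower on Day 12 than on Day 10, and their part in the results below was not tested.

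IFNG was the component that changed most steeply of those measured on every day. On Day 8 it ran from 0 to 2.73 CPM with a median of 0.278, on Day 10 from 19.5 to 93.8 with a median of 42.7, and on Day 12 from 1112 to 19216 with a median of 9020. The embryos of successive days did not overlap in either interval. The means were 0.590 ± 0.844, 48.3 ± 26.3 and 9682 ± 5061 CPM (SD, n = 10 per day). The log2 fold change was 6.33 (SE 0.57, edgeR adjusted p = 1.28e-10) from Day 8 to Day 10 and 7.65 (SE 0.56, edgeR adjusted p = 3.85e-13) from Day 10 to Day 12. One embryo of Day 8, male d08_m_121, had no IFNG read, which allows up to 0.194 CPM at 3 counts. By Day 12 this single gene took 1.0% ± 0.479 of all counts in the embryo (SD, n = 10), with the lowest share of 0.127% (95% exact binomial interval 0.124 to 0.130) in female d12_f_245 and the highest of 1.79% (1.79 to 1.80) in male d12_m_276. These intervals, and limits at 3 counts, cover counting error only.

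IFN-DELTA-1, the type I interferon, was seen on Day 12 only. All 20 embryos of Days 8 and 10 held 0 counts. On Day 12 all 10 embryos expressed it, from 6.94 CPM in female d12_f_245 through a median of 21.3 to 87.4 CPM in male d12_m_276, with a mean of 29.9 ± 24.2 (SD, n = 10). Against the highest limit at 3 counts among the Day 10 libraries, 0.170 CPM, the Day 12 mean was at least 176-fold higher and the lowest Day 12 embryo at least 41.0-fold higher. Embryos of a day differed widely in both ligands. The highest Day 12 embryo held 12.6 times the IFN-DELTA-1 level and 17.3 times the IFNG level of the lowest. Without female d12_f_245 these ratios were 10.1 and 4.15, and without male d12_m_276 they were 6.43 and 13.9. The coefficient of variation of IFN-DELTA-1 on Day 12 was 80.9%, larger than that of 98.7% of the 4404 genes with a mean within 2 times its own, and that of IFNG on Day 10 was 54.5%, larger than that of 98.3% of 3928 such genes.

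**Figure D1:**
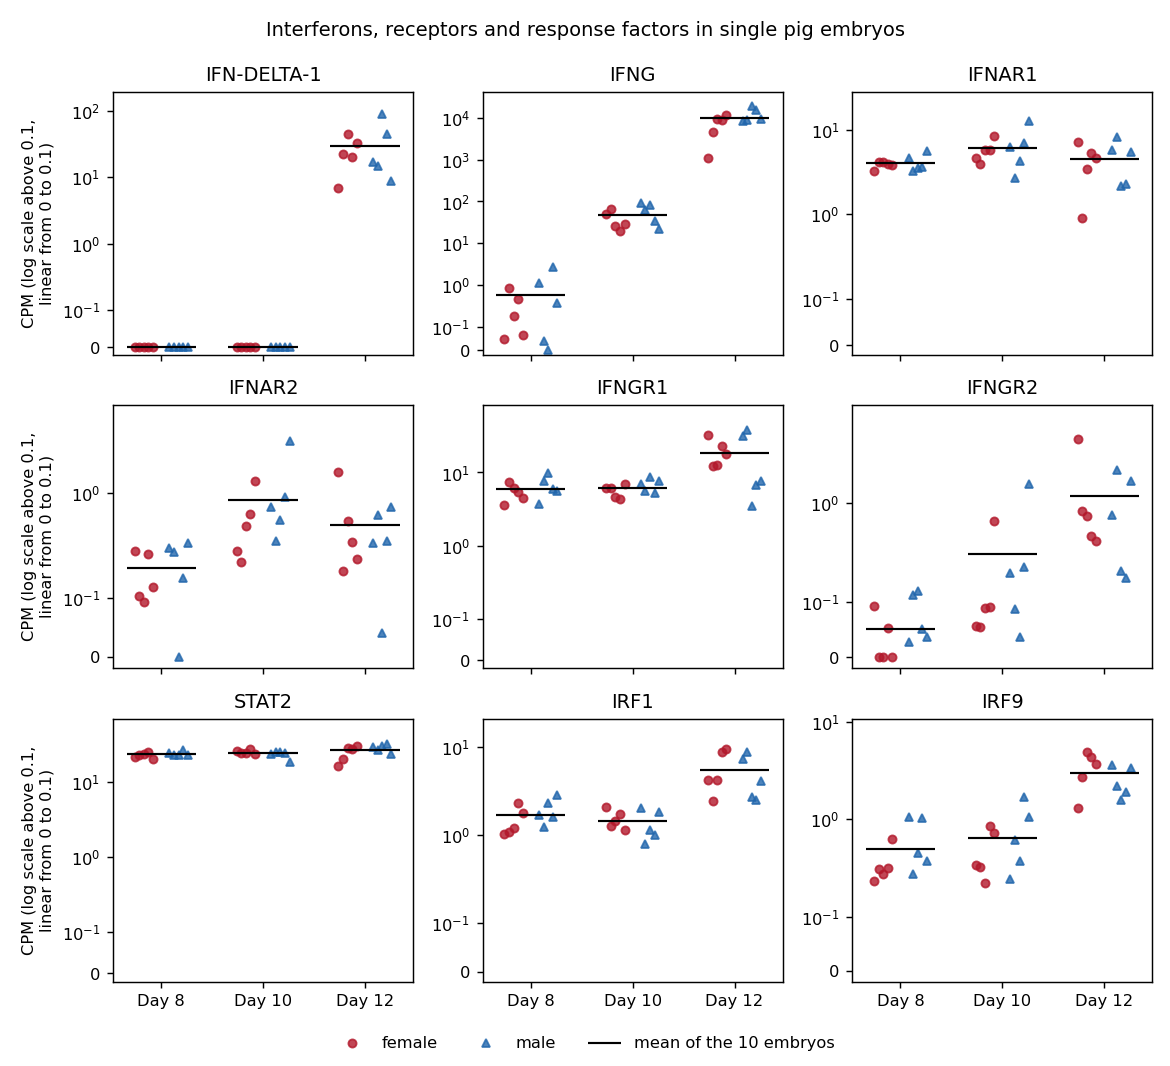
CPM of each of the 9 genes in single embryos (points, female and male by colour and shape) by day, with the mean of the 10 embryos as a line. The axis is logarithmic above 0.1 CPM and linear below; IFN-DELTA-1 is at 0 in the 20 embryos of Days 8 and 10, IFNG climbs from a mean of 0.590 to 9682 CPM, and STAT2 stays between 16.5 and 32.3 CPM.

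The receptor chains moved less than the ligands, and each in its own way. IFNAR1, the signalling chain of the type I receptor, was present throughout, at 3.24 to 5.57 CPM on Day 8 (median 3.92), 2.69 to 12.9 on Day 10 (median 5.71) and 0.900 to 8.21 on Day 12 (median 4.94). The days overlapped, and its log2 fold changes of 0.62 (SE 0.27, adjusted p = 0.0552) and -0.45 (SE 0.27, adjusted p = 0.153) did not pass. IFNAR2, the chain that binds type I interferon most tightly, ran from 0 to 0.334 CPM on Day 8 (median 0.209), from 0.218 to 3.11 on Day 10 (median 0.596) and from 0.0410 to 1.59 on Day 12 (median 0.344). These levels rest on 0 to 86 reads per library. IFNAR2 rose by 2.08 on the log2 scale from Day 8 to Day 10 (SE 0.49, adjusted p = 0.000679), with overlapping embryos, and its change to Day 12 was -0.91 (SE 0.47, adjusted p = 0.0951). The rise was close to the threshold of 0.001: it was lost when any 1 of 9 embryos was left out (adjusted p 0.00101 to 0.00402, the highest without Day 10 male d10_m_453) and with library size alone (0.00174).

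IFNGR1, the ligand-binding chain of the interferon gamma receptor, was 3.57 to 9.83 CPM on Day 8 (median 5.78), 4.41 to 8.70 on Day 10 (median 6.11) and 3.45 to 37.6 on Day 12 (median 15.3). It rose by 1.56 on the log2 scale from Day 10 to Day 12 (SE 0.30, adjusted p = 3.90e-05), although 3 males (d12_m_276, d12_m_286 and d12_m_307) remained at 3.45, 6.78 and 7.70 CPM, below the highest Day 10 embryo. IFNGR2, the chain that joins it on binding, was lower still on Days 8 and 10, at 0 to 0.129 CPM on Day 8 (median 0.0444), 0.0370 to 1.55 on Day 10 (median 0.0900) and 0.174 to 4.49 on Day 12 (median 0.757). Its log2 differences of 2.56 (SE 0.78, adjusted p = 0.00613) and 1.82 (SE 0.61, adjusted p = 0.0111) did not pass the threshold of 0.001. Without Day 10 male d10_m_453, which held 1.55 CPM against 0.669 or less in the other Day 10 embryos, the difference to Day 12 was 2.73 and passed (adjusted p = 0.000218), as it did with the robust GLM (2.47, adjusted p = 1.68e-05).

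Of the response factors, both interferon regulatory factors rose between Days 10 and 12 and STAT2 did not. IRF1 was 1.03 to 2.82 CPM on Day 8 (median 1.64), 0.782 to 2.09 on Day 10 (median 1.34) and 2.46 to 9.60 on Day 12 (median 4.22), and every Day 12 embryo lay above every Day 10 embryo. Its log2 fold change was -0.24 (SE 0.27, adjusted p = 0.454) in the first interval and 1.92 (SE 0.27, adjusted p = 3.40e-07) in the second. IRF9 was 0.235 to 1.07 CPM on Day 8 (median 0.344), 0.223 to 1.69 on Day 10 (median 0.489) and 1.30 to 4.95 on Day 12 (median 3.03). It rose by 2.2 on the log2 scale from Day 10 to Day 12 (SE 0.36, adjusted p = 3.52e-06), with Day 12 female d12_f_245 at 1.30 CPM below Day 10 male d10_m_435 at 1.69. STAT2, the partner of IRF9 in the type I complex, held medians of 23.3, 24.9 and 28 CPM on the 3 days, and its log2 fold changes were 0.05 (SE 0.09, adjusted p = 0.651) and 0.12 (SE 0.09, adjusted p = 0.267). Its coefficient of variation of 10.1% on Day 10 was below the median of 15.6% of genes at a like mean.

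Read together, 2 of the 9 genes (IFNG and IFNAR2) rose from Day 8 to Day 10, where 9.88% of all genes rose, 4.20% fell and 14.1% passed in either direction. From Day 10 to Day 12, 5 of the 9 (IFN-DELTA-1, IFNG, IFNGR1, IRF1 and IRF9) rose, where 14.9% of all genes rose, 8.39% fell and 23.3% passed. None of the 9 fell in either interval. The embryos of the 2 days did not overlap for IFNG from Day 8 to Day 10, as for 22.0% of all genes, and for IFN-DELTA-1, IFNG and IRF1 from Day 10 to Day 12, as for 16.6% of all genes. IFN-DELTA-1, at 0 counts in all 20 embryos of Days 8 and 10, could be among the 13103 genes only through Day 12. Its place in these counts is therefore no independent result, and the components were chosen with earlier results of these data known. With library size alone in place of TMM factors the median of all genes moved by -0.18 from Day 8 to Day 10 and by 0.20 from Day 10 to Day 12 on the log2 scale, and the higher and lower calls over all genes in the first interval from 1295 and 550 to 1027 and 811. Only the signs of IFNGR1 (-0.13) and STAT2 (-0.12), both from Day 8 to Day 10 and neither past the threshold, turned among the 9 under that scaling.

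The rest of the pathway was read from lists of its textbook genes. The counts below stand beside 9.88% of all genes that rose and 4.20% that fell from Day 8 to Day 10. In the second interval these shares were 14.9% and 8.39%. All 9 listed receptor chains and Janus kinases were in the table. From Day 10 to Day 12, IFNGR1 was the 1 that rose and IFNLR1, a chain of the type III interferon receptor, the 1 that fell (log2 fold change -1.14, SE 0.25, adjusted p = 0.000203). Of the 15 measured STATs and IRFs, 3 rose from Day 8 to Day 10, among them IRF5 (2.97), and none fell. In the second interval 7 of the 15 rose: STAT3 (2.97), IRF2 (2.55), IRF9, IRF1, IRF7 (1.80), STAT5A (1.51) and STAT5B (1.34). Among 16 inhibitors of the pathway, SOCS3 rose first (1.71, adjusted p = 6.98e-11, 2.80 to 5.54 CPM on Day 8 against 9.13 to 16.9 on Day 10). From Day 10 to Day 12, SOCS1, the feedback inhibitor of Janus kinases, rose from 0.888 to 2.06 CPM to 3.69 to 14.8 CPM (a rise of 2.26 on the log2 scale, SE 0.24, adjusted p = 1.40e-09), and CISH (1.56), PTPN1 (1.26) and USP18 (2.0), which acts on the type I receptor, rose with it.

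Response genes were counted over the union of a classical type I list and an interferon gamma list, of which 83 genes were in the table, among them STAT2, IRF1 and IRF9. From Day 8 to Day 10, 12 of the 83 rose and 5 fell (9 and 6 with library size alone), beside 9.88% and 4.20% of all genes, with a median log2 fold change of 0.51 beside 0.03. The 17 calls were 27 with the robust GLM and 26 without Day 8 male d08_m_103. How many of all genes passed in these fits was not counted, so the gain cannot be read as one of response genes. From Day 10 to Day 12, 28 rose and 4 fell, beside 14.9% and 8.39% of all genes, with a median of 0.94 beside 0.04. The interferon gamma list held most of these: 19 of 34 rose and 4 fell (median 1.45), against 9 of 51 that rose and 0 that fell on the classical list (median 0.77). The share that rose on the classical list lay close to the 14.9% of all genes.

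Within the interferon gamma list the risers included FAS, the death receptor (1.95 CPM at most on Day 10, 4.02 to 29.99 on Day 12, adjusted p = 1.34e-09 for a rise of 3.56 with an SE of 0.38), and ICAM1, an adhesion molecule (1.41 to 3.33 CPM, then 6.94 to 39.6, adjusted p = 7.70e-14 for a rise of 3.53 on the log2 scale with an SE of 0.24). The inhibitor of complement SERPING1 rose by 2.85 (SE 0.30, adjusted p = 1.30e-09). TAPBP (2.79), CD74 (2.37), TAP1 (1.53), PSME2 (1.37), PSME1 (1.24) and PSMB10 (1.19) also rose, while B2M lay at 0.59 (adjusted p = 0.393) and TAP2 at 0.58 (adjusted p = 0.303), all of these named after their values were seen. The 4 that fell were UPP1 (-5.89, 41.2 to 384 CPM on Day 10 and 1.37 to 4.68 on Day 12), a uridine phosphorylase, SECTM1 (-4.04), NAMPT (-1.61), an enzyme of NAD synthesis, and LAP3 (-1.01), a leucine aminopeptidase.

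On the classical list ISG15, a ubiquitin-like protein, went from 0 to 1.14 CPM on Day 10 to 2.01 to 9.55 CPM on Day 12 (a rise of 4.26 on the log2 scale, SE 0.54, adjusted p = 4.43e-08). ISG20, an exonuclease, went from 0 to 0.0909 CPM to 0.116 to 1.83 CPM (4.99, adjusted p = 2.02e-08), and BST2, which tethers virus particles, from 0.111 to 0.730 CPM to 1.54 to 6.66 CPM (3.36, adjusted p = 1.96e-08). Every Day 10 value of ISG20 lay under the limit at 3 counts, 0.108 to 0.170 CPM in those libraries, so the size of its rise rests on few reads. MX1, an antiviral GTPase named after its values were seen, rose by 2.36 (SE 0.48, adjusted p = 9.69e-05) to a mean of 4.20 ± 1.31 CPM (SD, n = 10), with Day 10 male d10_m_435 (4.15 CPM) inside the Day 12 range of 1.74 to 6.09. From Day 8 to Day 10, where 9.88% of all genes rose and 4.20% fell, 5 genes of the classical list rose, among them TDRD7 (3.07) and PARP9 (1.88). The 3 that fell were IFI35 (-3.70), C2H19orf66 (-2.30) and TRIM26 (-1.65). TDRD7 and the 3 that fell did not overlap between the days.

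**Figure D2:**
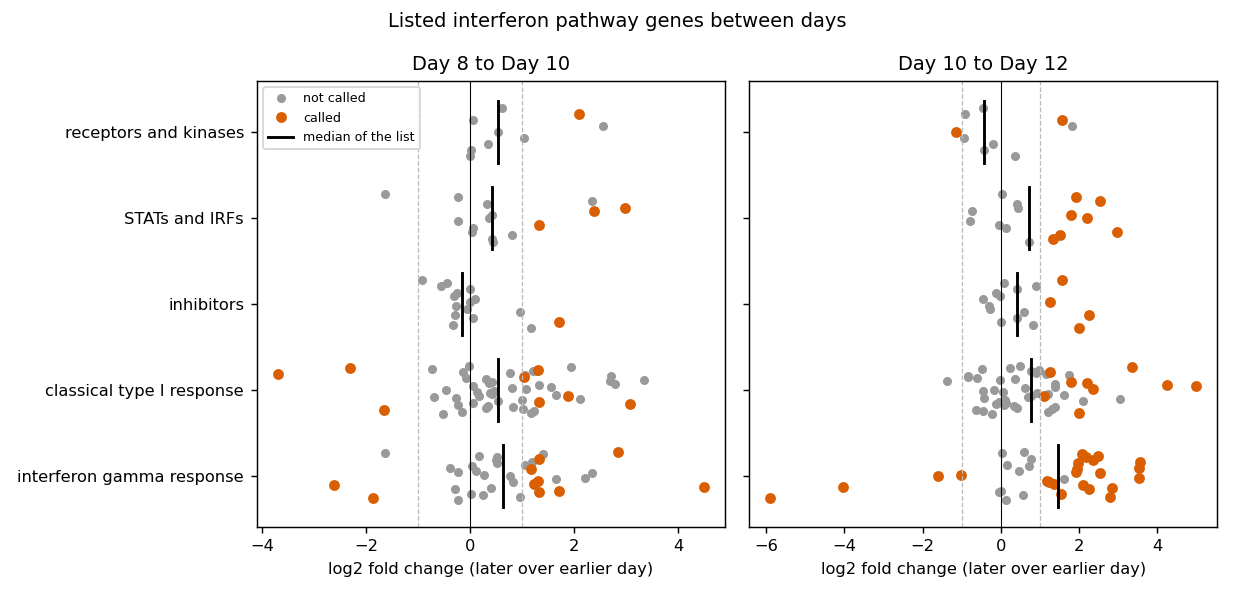
Log2 fold change (horizontal axis, later over earlier day) of each measured gene of 5 pathway lists; called genes (FDR under 0.001 and beyond 1) are orange and the black bar is the list's median. From Day 10 to Day 12 the interferon gamma list has its median at 1.45 with 19 of 34 genes called higher, and the classical type I list its median at 0.77 with 9 of 51. Of all genes 14.9% were called higher.

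**Figure D3:**
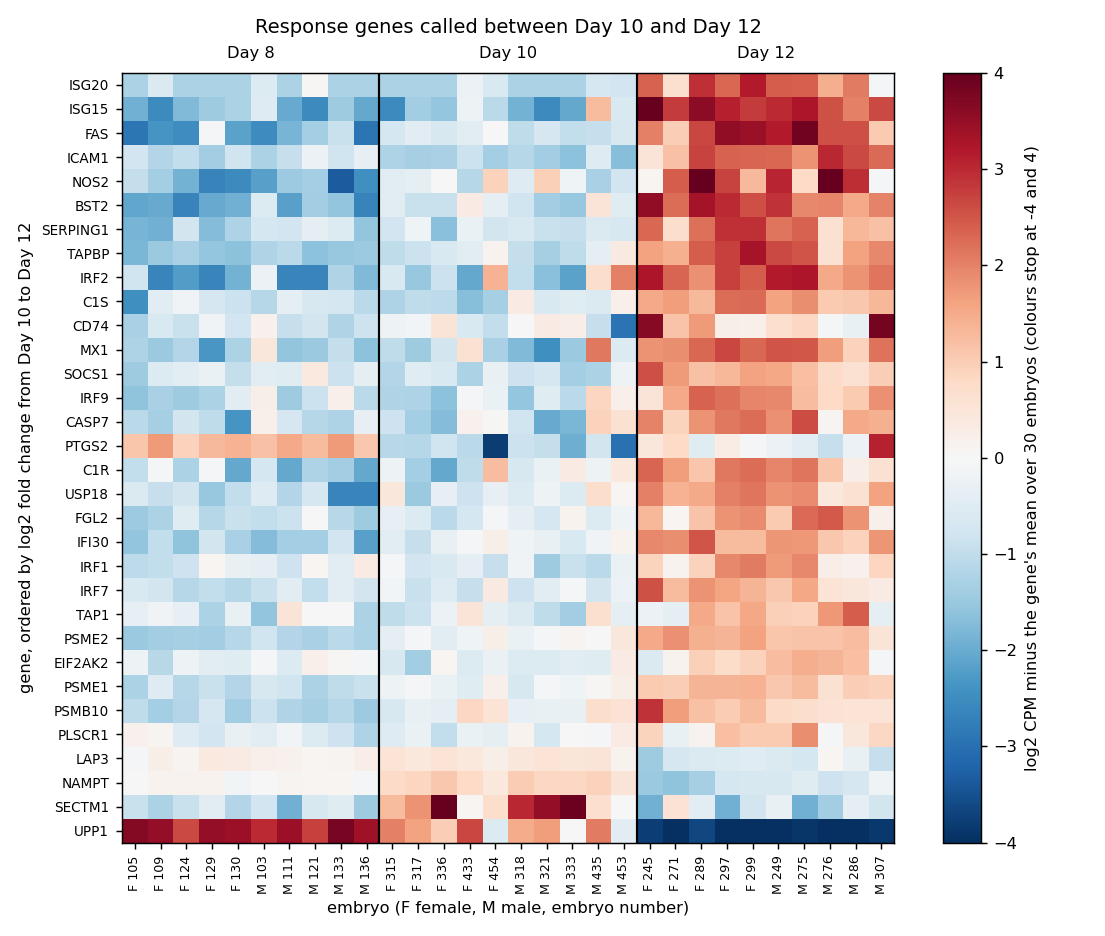
Log2 CPM minus the gene's mean over the 30 embryos for the 32 response genes called between Day 10 and Day 12 (rows, by fold change; columns, embryos by day, sex and number). ISG20 and ISG15 head the 28 genes that are higher in Day 12 embryos and UPP1 is the lowest of the 4 that fell; Day 10 male d10_m_435 stands out for MX1 (4.15 CPM) and ISG15 (1.14 CPM).

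Single embryos without any IFN-DELTA-1 read already differed in response genes on Day 10. The label numbers of 6 Day 10 embryos begin with 3 (d10_f_315, d10_f_317, d10_m_318, d10_m_321, d10_m_333 and d10_f_336) and those of the other 4 with 4 (d10_f_433, d10_m_435, d10_m_453 and d10_f_454), here called the lower and the higher number series. What the number stands for is not stated, and the 2 series were compared only after response genes had been seen to be high in the higher series, so the counts here describe these embryos and are no independent evidence. Library totals overlapped, from 19773328 to 29917442 and from 22003433 to 32476637 counts. In the higher series, 13 of the 83 response genes were higher and 1 lower (edgeR, FDR under 0.05), where 1.67% of all genes were higher and 0.168% lower.

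ISG12(A), a classical interferon-induced gene, held 1.41 to 6.17 CPM in the lower series and 21.0 to 87.3 in the higher series (log2 difference 3.77, SE 0.41, adjusted p = 0.00263). IFITM1, which blocks virus entry, held 0.259 to 1.56 CPM against 5.04 to 17.1 (3.86, SE 0.48, adjusted p = 0.00263), and B2M, the light chain of MHC class I, 1.22 to 4.10 against 10.8 to 37.2 (3.33, SE 0.40, adjusted p = 0.00263). The series did not overlap for any of these, and how many of all genes did not overlap was not counted. IRF9 was the 1 of the 8 measured components that differed, at 0.223 to 0.608 CPM against 0.720 to 1.69 (log2 difference 1.59, SE 0.35, adjusted p = 0.0457). IFNG itself lay the other way, at 26.4 to 93.8 CPM in the lower series and 19.5 to 33.7 in the higher series, a difference of -1.30 that missed the threshold (SE 0.30, adjusted p = 0.0602). IFNAR1 (0.88), IFNAR2 (1.74) and IFNGR2 (2.83) leaned towards the higher series with adjusted p of 0.161, 0.104 and 0.0917. STAT2 (-0.08) and IRF1 (-0.02) had adjusted p of 0.855 and 0.992. The low chains of chromosome 13 varied together on Day 10: IFNAR2 and IFNGR2 had an r of 0.93 over the 10 embryos (1 of 28 pairs computed, unadjusted permutation p = 0.000230; rho 0.88, permutation p = 0.00145), and 0.73 without the 2 embryos farthest from the median. SECTM1 was the response gene lower in the higher series (-3.17, adjusted p = 0.0237).

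The counts between days differed with 1 number series at a time, fits that also held fewer Day 10 embryos (6 or 4 in place of 10). With Day 10 embryos of the lower series alone, 12 response genes changed from Day 8 and 42 to Day 12, and with those of the higher series alone 22 and 17, beside 17 and 32 with all embryos. For the 9 components the calls from Day 10 to Day 12 were 5 with the lower series and 3 with the higher series, and from Day 8 to Day 10 they were 1 and 3. IFNGR2 was gained from Day 10 to Day 12 with the lower series (log2 fold change 3.63, adjusted p = 9.56e-05) and from Day 8 to Day 10 with the higher series (3.58, adjusted p = 0.0010, just under the threshold). IFNAR2 did not pass from Day 8 to Day 10 with the lower series (log2 fold change 1.13, adjusted p = 0.0616), and IRF9 lay at -0.49 there. IFNGR1 kept its size from Day 10 to Day 12 with either series (1.54 and 1.61) but missed the threshold of 0.001 (adjusted p = 0.00114 and 0.00608), and IRF9 missed it with the higher series (1.47, adjusted p = 0.00657). IFNG, IFN-DELTA-1 and IRF1 passed with either series. The number of embryos and the series cannot be told apart in these fits. How many of all genes passed in them was not counted, so these counts have no share over all genes to be read against.

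Female and male embryos did not differ detectably in any component. By edgeR 0 of 4, 5 and 7 components that were in the day's own table passed an FDR of 0.05 on Days 8, 10 and 12, 0 had an unadjusted p under 0.05, and 0 passed by DESeq2 or the robust GLM, where 0.658%, 0.223% and 0.123% of all genes passed by edgeR. IFNG on Day 12 was 7487 ± 4336 CPM in females and 12662 ± 4850 CPM in males (SD, n = 5 each, in the Day 12 table), a log2 difference of -0.76 (SE 0.49, edgeR adjusted p = 0.348), with overlap. IFN-DELTA-1 was 26.7 ± 14.5 against 35.4 ± 33.2 CPM (log2 difference -0.40, SE 0.61, edgeR adjusted p = 0.696). On Day 10, 0 of the 5 passed with the number series as a term (0 at an unadjusted p under 0.05). A change of the female over male difference between days could be tested for the 8 components with reads before Day 12. By edgeR 0 passed from Day 10 to Day 12 or from Day 8 to Day 12 (0 at an unadjusted p under 0.05), and 0 by DESeq2, which gave no adjusted p for 5 of them in the first and 3 in the second. Over all genes 0.00% passed in the first and 0.00% in the second of these tests.

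The question for Day 12 was whether the response genes of an embryo follow its interferon level. A slope, the log2 change of a gene per doubling of the interferon, was fitted to every gene of the Day 12 table. Of 76 response genes, 5 had a positive and 9 a negative slope on IFNG at FDR under 0.05, where 17.2% of all genes had a positive and 16.1% a negative one. On IFN-DELTA-1, 3 were positive and 7 negative, where the shares of all genes were 3.08% and 2.90%. The median slope of the 76 was -0.08 on IFNG and -0.24 on IFN-DELTA-1, beside 0.01 and -0.02 over all genes.

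STAT2 had the strongest relation to IFNG among the receptor chains and factors of the Day 12 table. It ran from 16.5 CPM in female d12_f_245, the embryo with the least IFNG, and 20.4 in female d12_f_271, the next, to between 24.1 and 32.3 in the other 8. Its slope was 0.22 (SE 0.05, edgeR adjusted p = 0.0114), and the log2 levels had a Pearson r of 0.92 over the 10 embryos (permutation p = 0.000920, adjusted over all genes 0.0111) and a Spearman rho of 0.71 (permutation p = 0.0263, adjusted 0.162). Without the 2 embryos farthest from the median IFNG level, female d12_f_245 and male d12_m_276, r was 0.85. In the table of all embryos r was 0.93, and 0.60 without the 2 embryos farthest from the median in STAT2. The slope was 0.25 without female d12_f_245 (adjusted p = 0.178), 0.25 with library size as a term (0.522) and 0.06 with the first principal component of the Day 12 table as a term (0.823), so the call was lost in each and the size in the last.

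IRF1 and IRF9 followed neither interferon at this threshold. IRF1 had a slope of 0.03 on IFNG (SE 0.25, adjusted p = 0.938) and an r of -0.03 (permutation p = 0.952), and IRF9 a slope of 0.16 (SE 0.23, adjusted p = 0.604) and an r of 0.28 (permutation p = 0.471). IRF1 was at 2.71 and 2.53 CPM in males d12_m_276 and d12_m_286, which held the most IFNG (19216 and 15492 CPM), and at 9.60 in female d12_f_299, which held the next. IFNGR1 leaned to lower levels with more IFN-DELTA-1 (slope -0.77, SE 0.27, adjusted p = 0.121), as did IFNAR1 (-0.54, SE 0.20, adjusted p = 0.151). In the table of all embryos, the one that lists it, IFNGR2 had negative slopes on IFNG (-0.93, SE 0.27, adjusted p = 0.0215) and on IFN-DELTA-1 (-1.17, SE 0.23, adjusted p = 0.0134), which without female d12_f_245 were -1.56 and -1.005 and no longer passed (adjusted p 0.222 and 0.0789). That embryo held 4.49 CPM against 2.17 or less in the others. Without male d12_m_276 the slope on IFN-DELTA-1 was -1.22 and did not pass (0.0702).

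**Figure D4:**
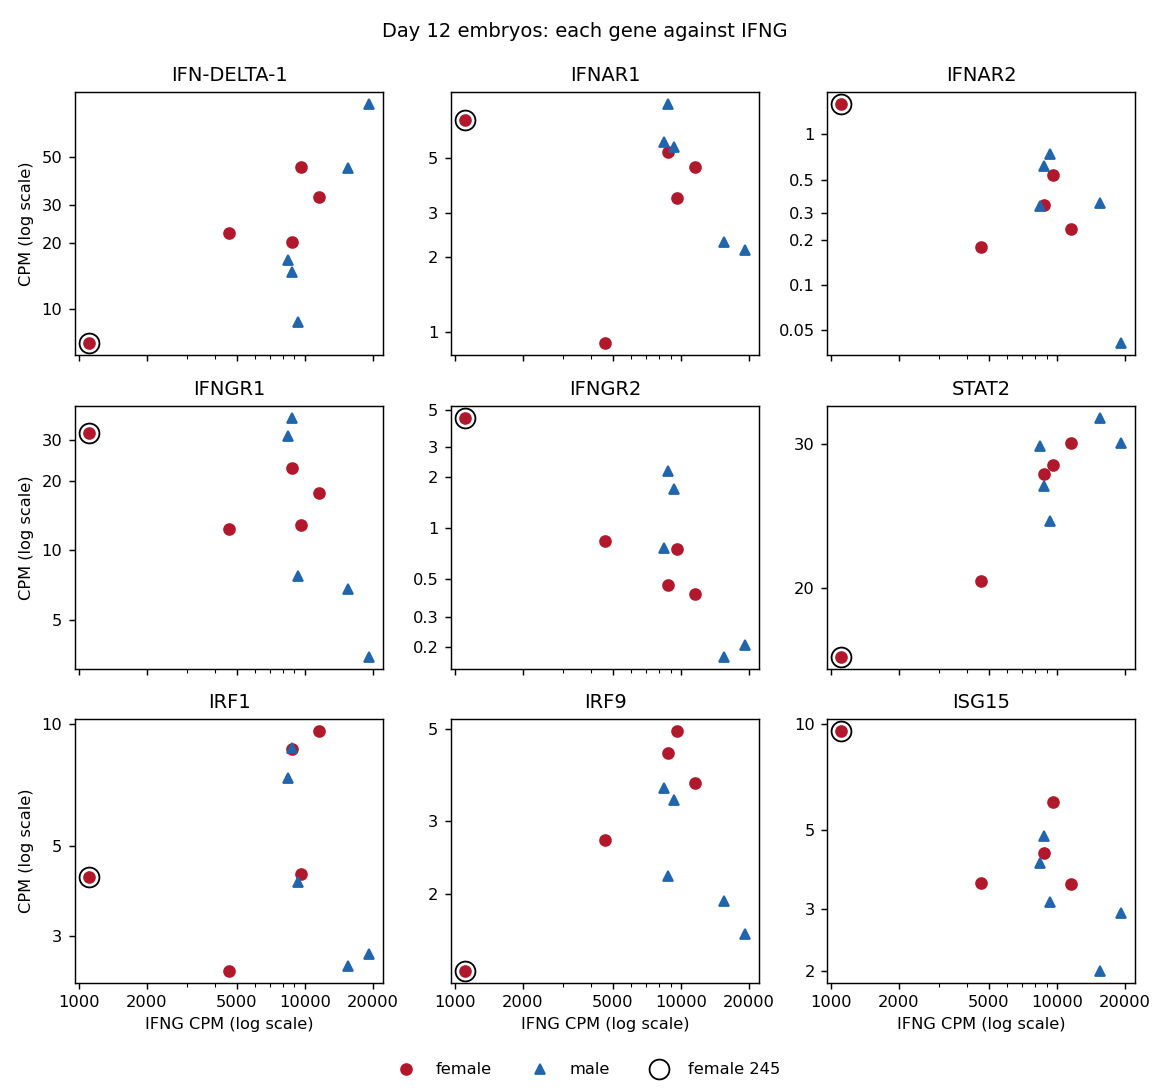
CPM of the 8 other components and of ISG15 against IFNG CPM in the 10 Day 12 embryos, both axes logarithmic, with the embryo of the smallest library, female d12_f_245, ringed. STAT2 goes up with IFNG (r = 0.92 on the log2 scale), IRF1 does not (r = -0.03), and ISG15 is highest, at 9.55 CPM, in the ringed embryo with the least IFNG.

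The response genes with the smallest p on IFNG were PSMB10, an immunoproteasome subunit (slope -0.63, SE 0.08, adjusted p = 0.000854), ICAM1 (0.61, SE 0.09, adjusted p = 0.00167), IL18BP, which captures interleukin 18 (-0.83, SE 0.13, adjusted p = 0.00204), ISG12(A) (-1.01, SE 0.18, adjusted p = 0.00301) and SOCS1 (-0.49, SE 0.09, adjusted p = 0.00315). Beside ICAM1, the positive ones were LAP3, STAT2, EIF2AK2 and TAP1, and ISG15 was among the negative ones (-0.46, SE 0.12, adjusted p = 0.0154). Female d12_f_245, with the least IFNG, held the most PSMB10 (30.2 CPM against 5.87 to 12.8) and ISG12(A) (282 CPM against 12.4 to 107). On IFN-DELTA-1 the smallest p belonged to ISG12(A) (-1.10, SE 0.16, adjusted p = 0.00427), B2M (-0.55, SE 0.09, adjusted p = 0.00775), CNP (-0.34, SE 0.07, adjusted p = 0.0123), IFITM1 (-0.90, SE 0.18, adjusted p = 0.0158) and LAP3 (0.30, SE 0.06, adjusted p = 0.0175). LAP3 and TAP1 were positive and ISG12(A) and CNP negative on both interferons, whose levels share the same embryos.

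IFNG itself varied with other properties of the libraries. Over the 10 embryos log2 IFNG had an r of 0.88 with log2 library size (permutation p = 0.00764; rho 0.50, permutation p = 0.144; r 0.49 without the 2 farthest embryos). With the first principal component of the Day 12 table, which held 39.9% of the variance, r was 0.94 (permutation p = 0.000130; rho 0.79, permutation p = 0.00863; r 0.90 without the 2). Without female d12_f_245, 1 of the 76 response genes was positive and 0 negative on IFNG. With library size or with the principal component as a term, 0 and 0 were. Some slopes kept most of their size and others did not. Without d12_f_245 and with the component as a term, the slope of ISG12(A) was -1.21 and -1.05. That of ICAM1 was 0.79 and 0.59 and that of SOCS1 -0.56 and -0.53. In contrast, the slope of IL18BP was -0.93 and 0.25, and that of TAP1 1.28 and -0.050. EIF2AK2 had 0.47 and -0.057, and STAT2 0.25 and 0.06. Over all genes 2105 positive and 1973 negative slopes on IFNG fell to 418 and 272 without female d12_f_245, to 1 and 0 with library size as a term and to 19 and 9 with the principal component as a term. IFNG and this main axis of difference between the embryos therefore cannot be told apart in 10 embryos. On IFN-DELTA-1, 0 were positive and 3 negative without female d12_f_245, and the same numbers without male d12_m_276. With library size as a term 0 and 4 were. With the principal component as a term 11 were negative, a count that takes in the receptor chain IFNAR1 (-0.75, edgeR adjusted p = 0.0465). NOS2 (1.56), LAP3 (0.23) and IL18BP (0.33) were positive with that term (adjusted p 0.0201, 0.0125 and 0.0145). Over all genes 376 positive and 354 negative slopes on IFN-DELTA-1 became 237 and 188 without female d12_f_245, 210 and 145 with library size and 1293 and 1143 with the component as a term.

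The 2 interferons went together on Day 12, with an r of 0.71 (permutation p = 0.0141; rho 0.73, permutation p = 0.0195). Adjusted over all genes, permutation p was 0.0485 for r and 0.150 for rho among genes set against IFNG, and 0.126 and 0.179 against IFN-DELTA-1. The r was 0.36 without female d12_f_245 and male d12_m_276, the lowest and the highest embryo for both. The slope of IFN-DELTA-1 on IFNG was 0.77 (edgeR adjusted p = 0.0184) and was 1.02 without the former and 0.60 without the latter, neither past the threshold (0.108 and 0.0695). It was 1.19 with library size and 1.55 with the first principal component as a term, again not past it (edgeR adjusted p = 0.425 and 0.156). Slopes did not differ between female and male embryos for any component at FDR under 0.05 (0 of 12219 genes on either interferon). By unadjusted p under 0.05 the slopes on IFN-DELTA-1 of IFNG (0.90 female minus male, unadjusted p = 0.0140) and IRF9 (0.99, unadjusted p = 0.00671) did, and those on IFNG of IFN-DELTA-1, IFNGR1, IRF1 and IRF9, the last by 1.42 (female minus male, SE 0.38, unadjusted p = 0.00433, adjusted p = 0.220), a difference that was looked for after the values had been seen.

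**Figure D5:**
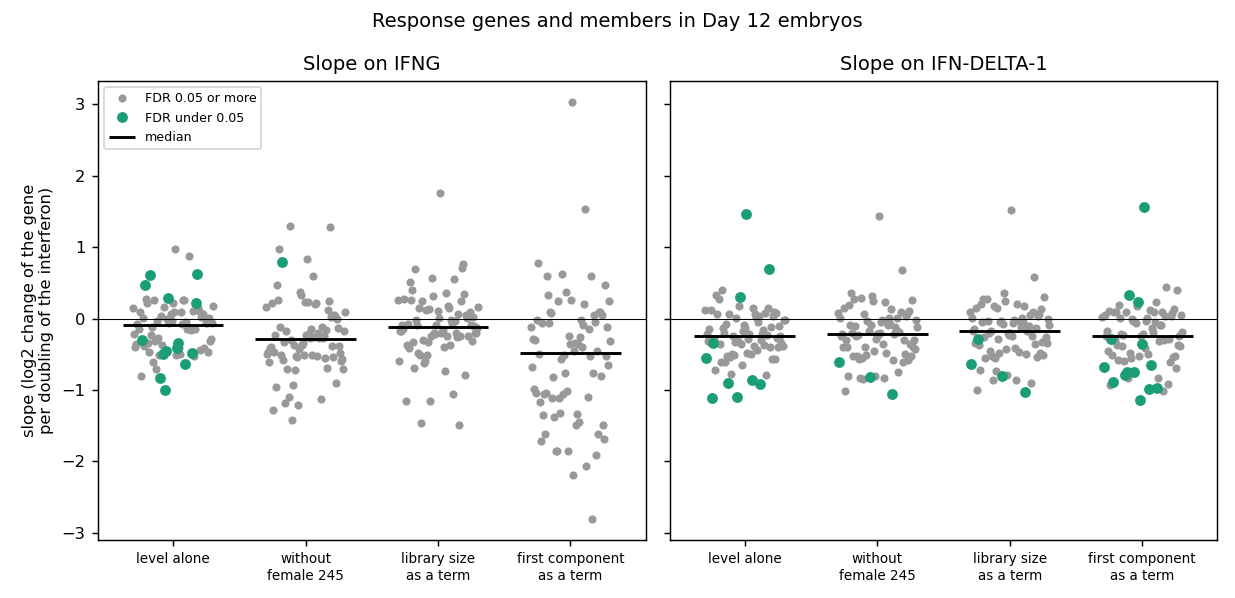
Slope on IFNG and on IFN-DELTA-1 (vertical axis, log2 change of the gene per doubling) of each response gene and component in the Day 12 embryos under 4 settings; green points have an FDR under 0.05 and bars are medians. On IFNG the called points are 5 positive and 9 negative with the level alone, 1 and 0 without female d12_f_245, and 0 with either added term.

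On Day 10, when IFNG was expressed without IFN-DELTA-1, no gene had a slope on IFNG at FDR under 0.05 (edgeR, 0.00% positive and 0.00% negative of 11674 genes, 983 at an unadjusted p under 0.05). Of 59 response genes and components in that table, 0 passed, 16 had an unadjusted p under 0.05 and 40 had a negative slope. This comparison was added after the data had been seen, and the number series above runs along it.

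The genes most alike to each interferon over the 10 Day 12 embryos were chosen by the highest r among genes with a mean of at least 1 CPM, so their values are a description. For IFN-DELTA-1 they were CD40, a receptor of the TNF receptor family (r 0.98, rho 0.99), LOC110255452 (0.98, 0.98), SPG21 (0.98, 0.92), PROM2 (0.97, 0.98) and SLC13A4, a sulphate transporter (0.97, 0.96). For IFNG they were ATP10B (0.99, 0.87), ZNF792 (0.99, 0.98), TMEM87B (0.99, 0.89), HNRNPLL (0.99, 0.78) and WLS, which carries Wnt proteins to the cell surface (0.99, 0.92). None of these was on the response lists used here, which do not hold every gene that interferon can induce. Absence from the lists therefore does not make a gene unrelated to the response. The 2 interferons shared none of the 5.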

How the data were processed

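The authors sequenced RNA of single embryos as 100-base single-end reads, trimmed them, mapped them to Sscrofa11.1 and deposited raw read counts per NCBI gene; the aligner, the counting tool and its strand setting are not given in the sources used here. One deposited table holds 13103 genes of all 30 embryos and 1 table per day holds 11405, 11675 and 12220 genes. In the first, each gene reached 0.5 CPM in no fewer than 4 embryos. Total counts ran from 6068212 to 34002508.

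Counts were tested in R 4.3.3 with the quasi-likelihood F test of edgeR 4.0.16 (robust, TMM factors, Benjamini-Hochberg adjustment over all genes of the table, which is the adjusted p or FDR of the text). Days were compared in 1 fit of 3 groups at FDR under 0.001 and more than 1 on the log2 scale, and sexes in the table of their day at FDR under 0.05. Day 12 slopes used the log2 CPM (prior count 2) of an interferon as covariate, at FDR under 0.05. The SE was taken as the estimate divided by the root of F. Correlations were tested with 100000 permutations, two-sided, in Python 3.11.15 (numpy 2.4.6, pandas 2.3.3), and figures were drawn with matplotlib 3.10.9. A gene at 0 was set against 3 counts per library. The study used the robust GLM of edgeR, which was an alternative here, as were DESeq2 1.42.0, RLE factors, library size alone, a filter of 10 counts in 5 embryos, other covariates and each embryo left out.

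Genes named one by one are the 9 components, up to 4 called genes per list with the largest change and no overlap, the 5 response genes with the smallest slope p per interferon and the 5 genes most alike to each. Others were named after their values were seen, where a list's members are given in full or a sample stands out. The components and lists were chosen with earlier results of these data known. IFNAR2 and IFNGR2 are in none of the day tables, so their slopes come from the table of all embryos. That table for slopes and sexes, the Day 10 slope, slopes by sex and the Day 10 number series (also as a term between sexes) were added after the data were seen. The tests between days and sexes, the Day 12 slope and the permutation correlation were checked on simulated data. The simulated embryos were independent, so the check covers neither littermates nor a main axis shared by many genes. No genome was used here, so no sequence is shown. Some genes of the pathway are not reported here.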

Additional observations from a re-analysis of the deposited data

Results flagged for a closer look

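Embryos far from the rest of their day or of their day and sex were looked for in 75 groups of 5 or 10 values, by the gap to the nearest other embryo over the whole range. The limits used mark about 1 in 20 groups of normally distributed values. CPM that rest on few reads need not be so distributed, so the share that chance marks here is not known. In all, 14 were marked, many of them the same embryo counted in both its day and its sex.

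Day 10 male d10_m_453 stood apart in 3 of the 9 genes, with IFNGR2 at 1.55 CPM (43 reads), IFNAR2 at 3.11 CPM (86 reads) and STAT2 at 18.5 CPM, the last below all other embryos of its day, and was marked in both groups for each. Among Day 10 females, embryo d10_f_454 held 0.669 CPM of IFNGR2 from 13 reads against 0.0909 in the next. Both belong to the higher number series.

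Day 12 female d12_f_245, the embryo with the smallest library, stood apart for IFNGR2 at 4.49 CPM (31 reads) and for IFNAR2 at 1.59 CPM (11 reads), in both groups. Day 12 male d12_m_276 stood apart for IFN-DELTA-1 at 87.4 CPM (2130 reads) against 44.7 in the next. On Day 8, male d08_m_133 held 2.73 CPM of IFNG (53 reads) against 1.15 in the next, and female d08_f_130 held 0.636 CPM of IRF9 (10 reads) against 0.317 in the next female.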

How the results depend on the processing

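Between days, the 2 components called from Day 8 to Day 10 became 1 with library size alone or with Day 10 embryos of the lower number series, and 1 to 2 when single embryos were left out. The 5 called from Day 10 to Day 12 became 3 with Day 10 embryos of the higher number series. The 17 response genes called from Day 8 to Day 10 became 27 with the robust GLM and 14 to 26 with single embryos left out (26 without Day 8 male d08_m_103), and the 32 called from Day 10 to Day 12 became 17 with Day 10 embryos of the higher number series. That last fit held 4 Day 10 embryos in place of 10. The share of all genes was counted neither in it nor with the robust GLM or single embryos left out. Components called between sexes or in interactions stayed at 0 under all alternatives run.

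On Day 12, response genes with a positive slope on IFNG numbered 5, and 3 with sex, 0 with library size and 0 with the first principal component as a term, and 1 to 6 with single embryos left out. Those with a negative slope numbered 9, and 0 with library size or the component as a term, and 0 (without female d12_f_245) to 14 (without female d12_f_289) with single embryos left out. On IFN-DELTA-1 the 3 positive became 0 with library size as a term and 0 to 3 with single embryos left out. The 7 negative became 12 with DESeq2, 4 with library size and 11 with the component as a term. They became 3 to 10 with single embryos left out (3 also without male d12_m_276 and 4 without male d12_m_286). All of the 7 were response genes, but the counts of the alternatives also took in receptor chains. IFNGR1 was among the 12 and IFNAR1 among the 11. IFNAR1 was also counted without female d12_f_271, and IFNGR1 without male d12_m_307. The cause of these changes in counts was not tested.

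Among response genes, some called slopes on IFNG turned sign with the first principal component as a term. IL18BP went from -0.83 to 0.25, TAP1 from 0.62 to -0.050 and EIF2AK2 from 0.47 to -0.057. Among the interferons, receptor chains and response factors, signs turned only where no call had been made. From Day 8 to Day 10 they were IFNGR1 (-0.13) and STAT2 (-0.12) with library size alone, IFNGR1 with single embryos left out (-0.010 to 0.16) and IRF9 with the lower number series (-0.49), and from Day 10 to Day 12 IFNAR2 with the lower number series (0.047). Between sexes (female over male) they were IFN-DELTA-1 on Day 12 with the robust GLM (0.083), and, with single embryos left out, IFNAR1 on Day 8 (-0.17 to 0.036), Day 10 (-0.43 to 0.17) and Day 12 (-0.42 to 0.14), and on Day 12 IFN-DELTA-1 (-0.69 to 0.29), IFNGR1 (-0.0738 to 0.70) and IRF1 (-0.020 to 0.52). Among slopes on IFN-DELTA-1 it was IRF9, with library size alone (-0.033), with sex (-0.053), library size (-0.040) or the component (-0.029) as a term and with single embryos left out (-0.17 to 0.23). Among slopes on IFNG it was IRF1 with the component as a term (-1.11) and, with single embryos left out, IRF1 (-0.37 to 0.16) and IRF9 (-0.53 to 0.33). IFNAR2 and IFNGR2 rest on few reads, and 10 embryos a day limit the slopes. No paired analysis was possible because the groups share no embryo numbers. The Day 10 number series holds both sexes, and as a term it left 0 components called between sexes.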
